A study of Mus musculus with 6 samples.

Results

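The inducible heat shock chaperones were followed as 10 genes in RNA-seq libraries of the mouse abdominal aorta. They were found by gene symbol in the authors' TPM table, which holds 55426 genes, and all 10 were present once. TPM is a level per transcript length, scaled to the same total in each library. *Hspa1a* and *Hspa1b* were also added into 1 value, because they are near-identical genes.

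The 6 libraries came from male C57BL/6J mice, 3 labelled control and 3 labelled Prdm16 knockout. The knockout mice were Prdm16 fl/fl with *Myh11*-CreERT2 (Prdm16SMKO), in which a Cre recombinase made in smooth muscle cells removes *Prdm16* after tamoxifen, and the study describes the controls as *Myh11*-CreERT2 mice with wild-type *Prdm16*. Tamoxifen was given by gavage in corn oil at 75 mg/kg/day for 5 days to mice aged 8 to 10 weeks, and aortas were taken 2 weeks later without any injury model. Cre is carried on the Y chromosome, so only males could be used, and the whole vessel was sequenced, so cells in which Cre is not made are part of every value.

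Heat shock proteins bind unfolded proteins and help them fold, be rebuilt or be degraded. HSP70 proteins do this in cycles of ATP hydrolysis, HSP40 proteins hand them substrates and start the hydrolysis, HSP110 and BAG proteins release the nucleotide, and HSP90 takes over late folding steps. On heat or other protein stress the transcription factor HSF1 binds heat shock elements, which are repeats of the unit GAA in alternating direction, and raises transcription of these genes. In vascular smooth muscle cells (VSMCs), which carry a constant mechanical load, BAG3 also directs damaged cytoskeletal proteins to autophagy.

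*Hspa1a* and *Hspa1b* lie in the same orientation on chromosome 17 of GRCm38, *Hspa1a* at 34969190 to 34972156 and *Hspa1b* at 34956436 to 34959238, both on the minus strand and 9951 bases apart. In RefSeq's table for GRCm38.p6, 8 of the 10 members had promoter windows, from 250 bases before to 50 bases after a transcript start. The windows of *Hspa1a* and *Hspa1b* differed at 4 of 300 bases. The stretches shown here, from position −150 to −31 with the start as 0, were identical, and are given because these genes had the largest differences between the groups among the members. Capitals mark the match to the heat shock element, 2 units facing each other.

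Hspa1a (chr17:34972187-34972306, minus strand): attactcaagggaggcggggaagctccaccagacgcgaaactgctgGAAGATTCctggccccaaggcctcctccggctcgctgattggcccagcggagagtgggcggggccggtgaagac

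Hspa1b (chr17:34959269-34959388, minus strand): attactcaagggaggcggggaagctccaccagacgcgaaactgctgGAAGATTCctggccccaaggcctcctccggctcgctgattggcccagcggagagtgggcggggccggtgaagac

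A match of 2 units (GAANNTTC or TTCNNGAA, each its own reverse complement, so both strands were covered) was present in at least 1 window of 7 of the 8 members, *Dnajb1* being the exception, and in 17% of all 27025 genes with a window. A match of 3 units (GAANNTTCNNGAA or, on the other strand, TTCNNGAANNTTC, which contain the shorter motifs) was present in 3 of the 8 members, *Hspd1*, *Hspe1* and *Hsph1*, and in 0.662% of all genes. *Hspd1* and *Hspe1*, on chromosome 1 at 55077835 to 55088243 and 55088132 to 55091307, are transcribed away from each other, overlap by 112 bases and share 1 element, read here from both strands. The stretches shown for *Hsph1* and *Bag3* have their matches after the start, and *Hsph1* has a further match of 2 units before it. These stretches of 30 bases are shown because members whose groups lay apart and members whose groups overlapped both carry a match.

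Hspd1 (chr1:55088053-55088082, minus strand): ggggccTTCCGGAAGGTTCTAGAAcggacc

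Hspe1 (chr1:55088053-55088082, plus strand): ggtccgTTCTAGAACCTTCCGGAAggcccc

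Hsph1 (chr5:149636279-149636308, minus strand): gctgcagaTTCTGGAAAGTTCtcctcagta

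Bag3 (chr7:128523603-128523632, plus strand): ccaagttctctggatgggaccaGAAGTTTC

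Dnaja1 (chr4:40722333-40722362, plus strand): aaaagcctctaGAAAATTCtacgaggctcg

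A match describes letters in a window and is not evidence of binding.

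The targeted gene, *Prdm16*, was at 30.8 to 36.8 TPM in control and at 14.8 to 27.7 TPM in Prdm16SMKO libraries, lower in every knockout library but not past the threshold (limma, Benjamini-Hochberg adjusted p = 0.376). The depth of single libraries is unknown because TPM keeps no counts, so no counting error can be given. Limma p-values rest on a gene's spread between these 3 libraries of each group, moved towards the spread of genes of similar level. The labels do not tie the libraries to single animals. Mitochondrial genes made up 15.8% to 27.4% of a library's TPM and the 45S ribosomal RNA locus 15.6% to 31.4%, with overlap between the groups in both. VSMC markers were abundant in all 6 libraries (*Acta2* at 5256 to 13020 TPM). Levels were put on a log2(TPM + 0.5) scale and tested by limma over the 15775 genes averaging 0.5 TPM or more, which included all 10 members. Fold changes are Prdm16SMKO minus control on that log2 scale, and the threshold was an adjusted p of 0.05. For a single value, 0.1 is the smallest two-sided p that exact permutation of 3 and 3 libraries allows.

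All 10 members had a lower mean in Prdm16SMKO than in control aortas, the log2 fold changes lying between −1.54 and −0.10 (median −0.50, and −0.29 under array weights, a fit that weights libraries by their spread). Over all genes tested 45.8% had a fold change below 0, and the median was 0.02. In 6 members, *Hspa1a*, *Hspa1b*, *Hspa8*, *Hsph1*, *Hsp90aa1* and *Dnajb1*, every Prdm16SMKO library lay below every control library, which was so for 5.76% of all genes tested (7.02% lay apart in the other direction). The same 6 had an unadjusted p under 0.05, where 3.85% of all genes did and were lower. That count was 4 without Prdm16SMKO replicate 3 and under array weights, and 5 without control replicate 3. None of the 10 passed the adjusted threshold in limma, against 0.171% of all genes called lower and 0.355% called in either direction, and the smallest adjusted p-values were 0.0553, 0.0648, 0.0696 and 0.0982, for *Dnajb1*, *Hspa1a*, *Hsph1* and *Hspa1b*. The study's own analysis also used an adjusted p under 0.05, but it called many more genes than the 56 called here. Its lower genes include *Hspa1b* and an entry printed as *Hspal1a*, which is probably *Hspa1a*. The members were chosen with earlier results of these libraries known, so their counts are a description.

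**Figure D1:**
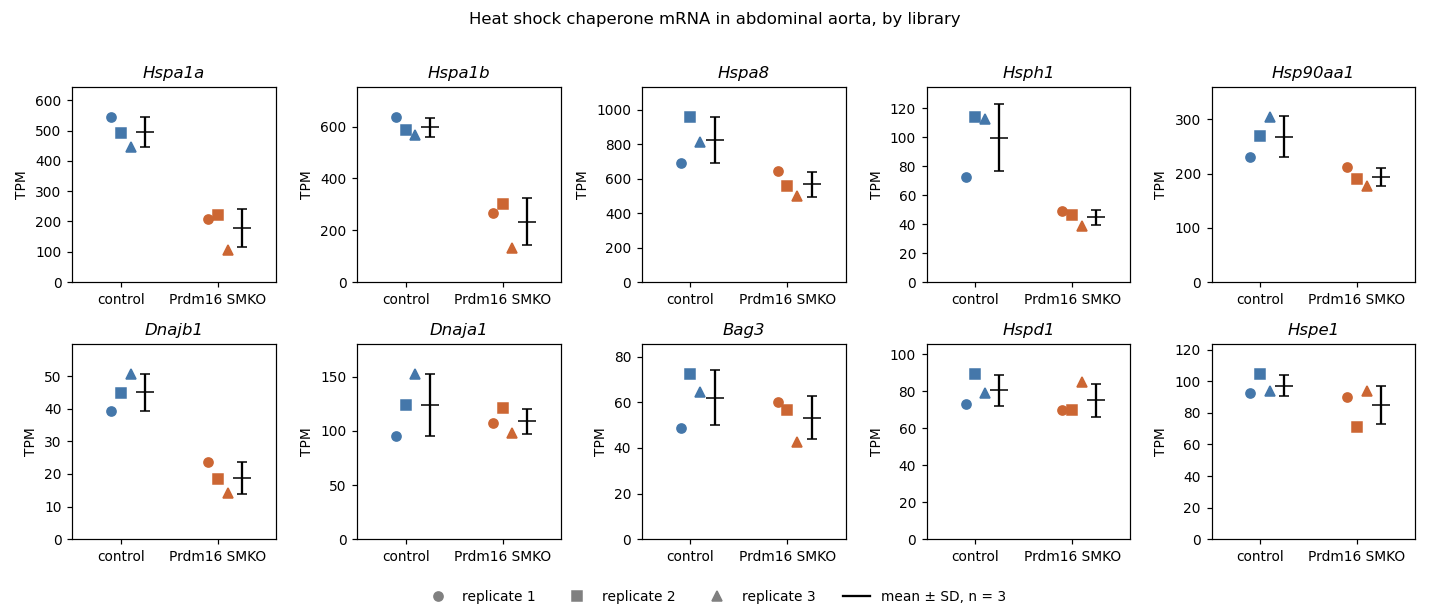
TPM of the 10 chaperone genes in each library, with control libraries in blue, Prdm16SMKO libraries in orange, a marker shape for each replicate number and the mean ± SD (n = 3) beside them; each axis starts at 0. The groups are apart in 6 genes and overlap in *Dnaja1*, *Bag3*, *Hspd1* and *Hspe1*.

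*Hspa1a* and *Hspa1b* encode the stress-inducible cytosolic HSP70. *Hspa1a* was at 546, 494 and 446 TPM in control and at 209, 220 and 105 TPM in Prdm16SMKO replicates 1, 2 and 3. The control libraries lay close together, the lowest was above each knockout library by a wide margin, and Prdm16SMKO replicate 3 was lowest. The means were 495 ± 50.2 and 178 ± 63.8 TPM (SD, n = 3 each), and the log2 fold change was −1.54 (95% confidence interval −2.17 to −0.92; limma, Benjamini-Hochberg adjusted p = 0.0648). *Hspa1b* was at 638, 587 and 568 TPM in control and at 265, 302 and 130 TPM in Prdm16SMKO replicates 1, 2 and 3, a log2 fold change of −1.45 (−2.11 to −0.79; limma, adjusted p = 0.0982).

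Reads of these genes can be placed on either. Of the stretches of 151 bases, the read length, in the *Hspa1a* transcript, 45.8% also occurred in transcripts of other genes, most of them in *Hspa1b*. The ratio of *Hspa1b* to *Hspa1a* was 1.17 to 1.37 over the 6 libraries and overlapped between the groups (exact permutation p = 0.3). *Gm20481*, an antisense gene over *Hspa1a*, was at 0 to 0.91 TPM, and the library kit does not mark strand. The summed value, which does not depend on that division, was 1184, 1081 and 1014 TPM in control and 474, 523 and 234 TPM in Prdm16SMKO replicates 1, 2 and 3. The mean of 410 ± 155 TPM in Prdm16SMKO libraries was 37.5% of the 1093 ± 86.0 TPM in control libraries (SD, n = 3 each). The log2 fold change of the sum was −1.49 (−2.14 to −0.84; limma, Benjamini-Hochberg adjusted p = 0.0854, exact permutation p = 0.1). When single libraries were left out it ran from −1.71 to −1.13, the smallest being without Prdm16SMKO replicate 3, and the adjusted p from 0.0635 to 0.269.

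*Hspa8* (chromosome 9, 40800984 to 40810087) encodes the constitutive HSP70 of the cytosol. It was at 692, 958 and 814 TPM in control and at 643, 556 and 500 TPM in Prdm16SMKO replicates 1, 2 and 3. The groups were apart by a small gap, between control replicate 1 and Prdm16SMKO replicate 1, and the log2 fold change was −0.53 (−0.94 to −0.12; limma, adjusted p = 0.420). The inducible sum exceeded *Hspa8* in all 3 control libraries, by 1.13 to 1.71 times, and was below it in all 3 Prdm16SMKO libraries, at 0.468 to 0.941 times. Such a ratio is taken within a library and does not move with its scaling.

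*Hsph1* (chromosome 5, 149614287 to 149636376) encodes HSP110, which exchanges the nucleotide of HSP70. It was at 72.8, 114 and 112 TPM in control and at 49.3, 46.0 and 38.9 TPM in Prdm16SMKO replicates 1, 2 and 3. The knockout libraries were close together and below the control range, in which replicate 1 stood low. The log2 fold change was −1.13 (−1.59 to −0.66; limma, adjusted p = 0.0696). Relative to *Hspa8*, *Hsph1* was at 0.105 to 0.138 in control and 0.0767 to 0.0828 in Prdm16SMKO libraries.

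*Hsp90aa1* (chromosome 12, 110690605 to 110702728) encodes the inducible cytosolic HSP90. It was at 230, 269 and 305 TPM in control and at 211, 190 and 178 TPM in Prdm16SMKO replicates 1, 2 and 3. The groups did not overlap, but the interval of the log2 fold change of −0.46 came close to 0 (−0.83 to −0.10; limma, adjusted p = 0.432). Its constitutive partner *Hsp90ab1* had a log2 fold change of −0.27 (limma, adjusted p = 0.774), and the ratio of *Hsp90aa1* to *Hsp90ab1* overlapped between the groups, at 0.425 to 0.589 in control and 0.426 to 0.440 in Prdm16SMKO libraries.

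The HSP40 members differed from each other. *Dnajb1* (chromosome 8, 83608193 to 83612653), the stress-inducible HSP40 that works with HSP70, was at 39.4, 44.96 and 50.7 TPM in control and at 23.7, 18.5 and 14.1 TPM in Prdm16SMKO replicates 1, 2 and 3. Its knockout mean was 41.7% of the control mean, with a log2 fold change of −1.26 (−1.74 to −0.79; limma, adjusted p = 0.0553). *Dnaja1* (chromosome 4, 40722150 to 40737149), a more constitutive HSP40, was at 95.6, 124 and 152 TPM in control and at 107, 121 and 98.2 TPM in Prdm16SMKO replicates 1, 2 and 3. Those ranges overlapped, with a control library as the lowest of the 6, and the log2 fold change was −0.17 (−0.61 to 0.27; limma, adjusted p = 0.920). The ratio of *Dnajb1* to *Dnaja1* was 0.332 to 0.412 in control and 0.144 to 0.222 in Prdm16SMKO libraries. Of 7 ratios computed within libraries, chosen after the values were seen, 4 did not overlap between the groups, each with an exact permutation p of 0.1 and a Benjamini-Hochberg adjusted p of 0.175 over the 7. The fourth was that of the *Hspa1a* and *Hspa1b* sum to *Hspd1*, at 12.1 to 16.2 in control and 2.75 to 7.49 in Prdm16SMKO libraries.

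**Figure D2:**
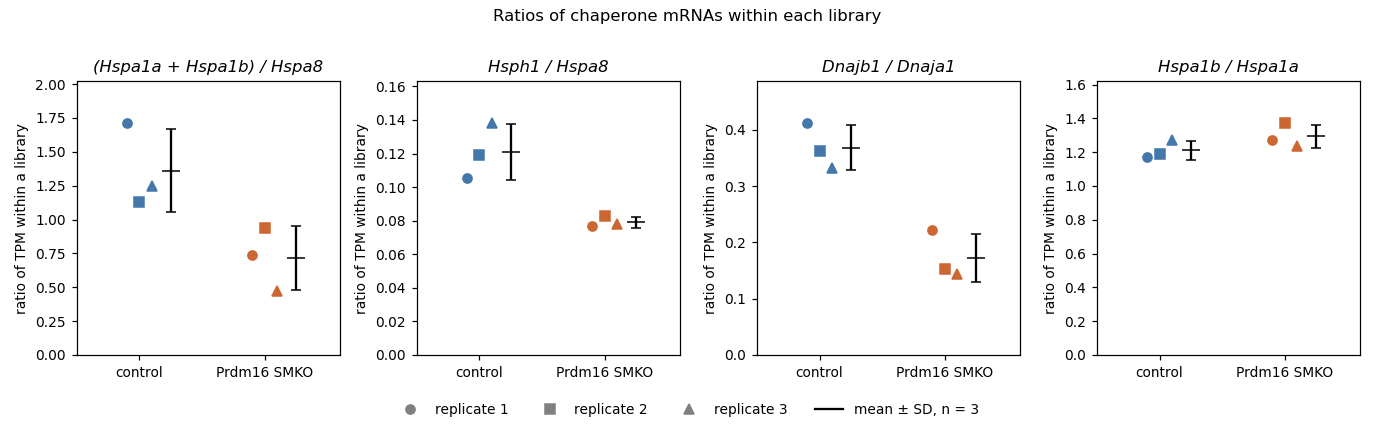
Ratios of TPM between 2 genes within each library, by group and replicate, with the mean ± SD (n = 3); axes start at 0. The first 3 ratios do not overlap between the groups, and *Hspa1b* to *Hspa1a* stays between 1.17 and 1.37.

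*Bag3* (chromosome 7, 128523616 to 128546981), the BAG co-chaperone, was at 48.9, 72.4 and 64.6 TPM in control and at 60.3, 56.7 and 42.5 TPM in Prdm16SMKO replicates 1, 2 and 3. The groups overlapped and the log2 fold change was −0.22 (−0.67 to 0.24; limma, adjusted p = 0.887). *Hspd1* and *Hspe1* encode HSP60 and HSP10, the barrel and the lid of the mitochondrial chaperonin. *Hspd1* was at 73.0, 89.3 and 79.0 TPM in control and at 70.1, 69.8 and 85.2 TPM in Prdm16SMKO replicates 1, 2 and 3. *Hspe1* was at 92.9, 105 and 94.1 TPM in control and at 90.3, 71.3 and 93.6 TPM in the same order. Both overlapped between the groups, with log2 fold changes of −0.10 (−0.45 to 0.25; limma, adjusted p = 0.95) and −0.20 (−0.56 to 0.16; limma, adjusted p = 0.853). Both intervals include 0, and that of *Hspe1* also includes the fold changes of *Hspa8* and *Hsp90aa1*. Transcripts of *Hspd1*, *Hspe1*, *Dnaja1*, *Hspa8* and *Hsp90aa1* share 13.9% to 55.9% of their stretches of 151 bases with other genes, so their values carry that uncertainty. *Hsph1*, *Dnajb1* and *Bag3* share none. The highest of these other genes was *Smu1*, shared with *Dnaja1*, at 19.35 to 26.87 TPM. *Gm15459*, shared with *Hspa8*, was at 5.76 to 10.74 TPM and *Gm12346*, shared with *Hsp90aa1*, at 1.93 to 2.93 TPM. For *Gm26825*, shared with *Hspa8*, and *AC117239.2*, shared with *Hspe1*, no TPM was available.

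**Figure D3:**
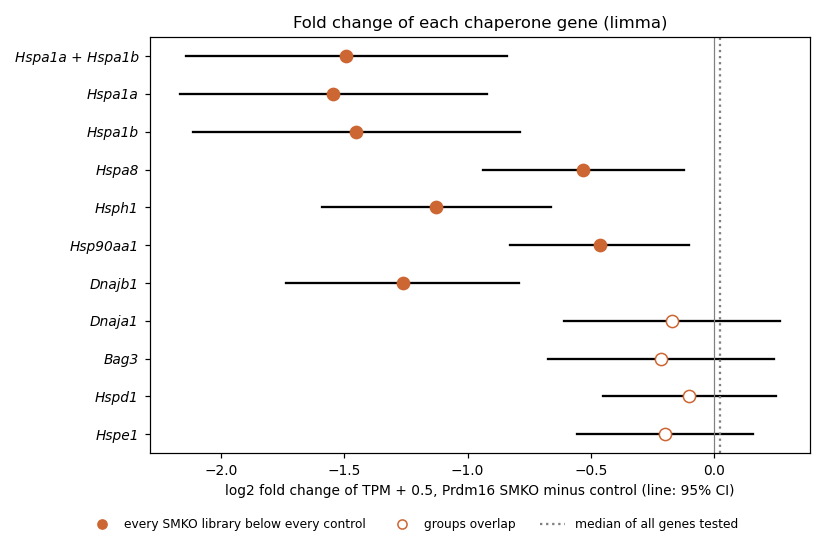
Log2 fold change of TPM + 0.5 (Prdm16SMKO minus control, limma) for the 10 genes and the *Hspa1a* and *Hspa1b* sum, with 95% confidence intervals as lines; filled points are genes whose groups do not overlap, and the dotted line is the median of all genes tested (0.02). *Hspa1a*, *Hspa1b*, *Dnajb1* and *Hsph1* lie from −1.54 to −1.13, and the 4 open points have intervals that include 0.

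By level, the members kept a wide range. In control aortas the order of mean TPM was *Hspa8* (822), *Hspa1b* (598), *Hspa1a* (495), *Hsp90aa1* (268), *Dnaja1* (124), *Hsph1* (99.8), *Hspe1* (97.2), *Hspd1* (80.4), *Bag3* (62.0) and *Dnajb1* (45.01). Neighbours in that order overlapped between *Dnaja1* and *Hsph1*, *Hsph1* and *Hspe1*, and *Bag3* and *Dnajb1*, and were apart elsewhere. In Prdm16SMKO aortas *Hspa8* (566) was still highest and *Dnajb1* (18.8) lowest, and *Hspa1b* (232), *Hsp90aa1* (193) and *Hspa1a* (178) overlapped. *Hsph1* (44.7) stood below *Hspe1* (85.1) and *Hspd1* (75.0), and overlapped with *Bag3* (53.2). Prdm16SMKO replicate 3 was the lowest of the 6 libraries in 7 of the 10 members, and control replicate 2 the highest in 5. This order was not particular to the members. Of 15 ER chaperone genes, 9 were lowest in Prdm16SMKO replicate 3 and 11 highest in control replicate 2. Of 8 other mitochondrial chaperones and proteases, 0 were lowest in Prdm16SMKO replicate 3 and 1 was highest in control replicate 2.

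The other genes of the chaperone network were taken from a list of 71, all of which were tested. Of these 44 were lower and 27 higher (median −0.03), none was called by limma at the adjusted threshold, and at an unadjusted p under 0.05 there were 2 lower and 2 higher, where 3.85% and 4.88% of all genes were. The median turned to 0.04 without control replicate 2 and to 0.02 under array weights. *Hsf1* (chromosome 15, 76477422 to 76501913), the main heat shock transcription factor, was at 17.4 to 25.1 TPM in control and 19.5 to 21.5 TPM in Prdm16SMKO libraries (log2 fold change −0.08, −0.49 to 0.32; limma, adjusted p = 0.970), and *Hsf2*, a related factor, had −0.27 (adjusted p = 0.819). Among the other HSP70 and HSP110 genes, apart from those on the ER and mitochondrial lists, 3 of 8 were lower. *Hspa1l*, an HSP70 gene 546 bases from *Hspa1a* on the opposite strand, was at 7.12 to 10.4 TPM in control and 3.93 to 5.75 TPM in Prdm16SMKO libraries (log2 fold change −0.79; limma, adjusted p = 0.266). It shares 83 of its 151-base stretches with *Hspa1a*, so reads there cannot be told apart. *Hspa12a* and *Hspa12b*, distant HSP70 relatives named after their values were seen, were higher in every Prdm16SMKO library, by log2 fold changes of 0.63 and 0.54 (limma, adjusted p = 0.483 and 0.357). They were the only 2 of the 71 genes that lay apart in that direction, where 7.02% of all genes did. In the other direction 7 of the 71 lay apart, where 5.76% of all genes did.

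Of the 9 genes of HSP90 and its co-chaperones 6 were lower, with a median of −0.13, *Hsp90ab1* having the largest difference. Of the 11 other HSP40 genes 6 were lower, with a median of −0.05, and *Dnajb4*, a cytosolic HSP40, had the largest, from 152 to 189 TPM in control to 112 to 150 TPM in Prdm16SMKO libraries (log2 fold change −0.36; limma, adjusted p = 0.598). The 8 other nucleotide exchange factors and HSP70 co-chaperones had a median of −0.01, and the largest difference among those averaging 5 TPM or more was that of *Bag2* (−0.12; limma, adjusted p = 0.966). Of the 8 genes of the cytosolic chaperonin TRiC 7 were lower, from −0.19 in *Cct7* to 0.09. Of 15 ER chaperone genes 12 were lower, with a median of −0.15, and *Serpinh1*, which encodes the collagen chaperone HSP47, differed most, from 442 to 541 TPM in control to 296 to 375 TPM in Prdm16SMKO libraries (log2 fold change −0.49; limma, adjusted p = 0.410). Of the 8 other mitochondrial chaperones and proteases 6 were higher, with a median of 0.18, the largest being 0.29 in *Dnaja3* (limma, adjusted p = 0.832).

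These list medians moved with single libraries. With 1 library left out, the median of the HSP90 list ran from −0.28 without control replicate 1 to −0.04 without control replicate 2. That of the HSP40 list ran from −0.16 without control replicate 3 to 0.04 without Prdm16SMKO replicate 3, and was 0.03 without control replicate 2. The exchange factors ran from −0.05 without control replicate 3 to 0.12 without control replicate 2, and were also above 0 without Prdm16SMKO replicate 2 or 3. TRiC ran from −0.19 without Prdm16SMKO replicate 1 to −0.003 without control replicate 2, and the heat shock factors from −0.19 without control replicate 3 to 0.03 without control replicate 2. The list of other HSP70 and HSP110 genes ran from −0.07 without Prdm16SMKO replicate 2 to 0.15 without Prdm16SMKO replicate 3. The ER list ran from −0.245 without Prdm16SMKO replicate 2 to −0.09 without control replicate 2, and the mitochondrial list from 0.06 without control replicate 3 to 0.29 without Prdm16SMKO replicate 2. Among the other 11 settings the sign turned for the exchange factors (0.03 with quantile normalization, 0.01 with rescaled TPM and 0.04 under array weights) and for the HSP90 and TRiC lists (0.04 and 0.02 under array weights).

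**Figure D4:**
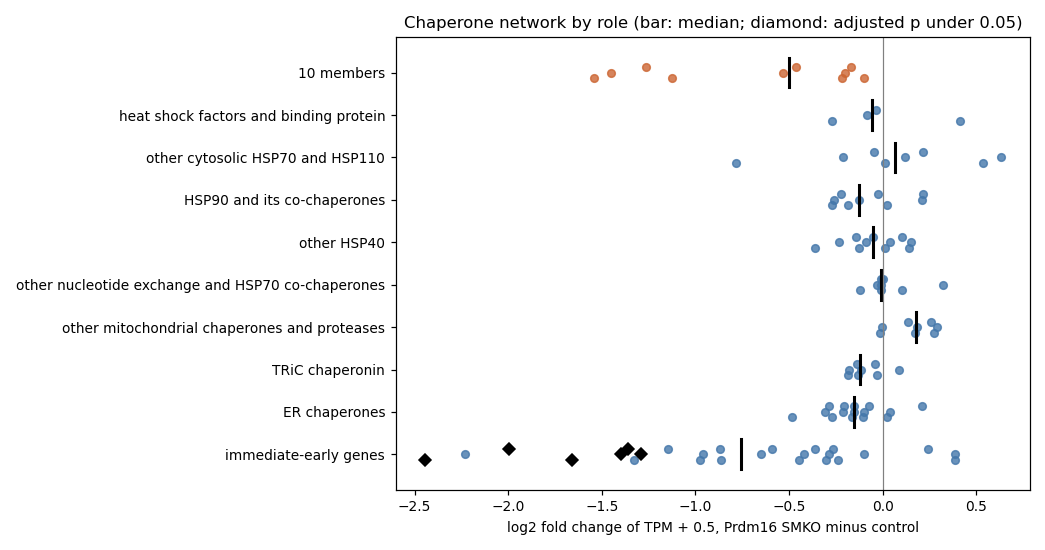
Log2 fold change of TPM + 0.5 (Prdm16SMKO minus control) of each gene, by role, with the 10 members in orange, other lists in blue, the median of each list as a bar and genes at an adjusted p under 0.05 as black diamonds. The medians of the 8 network lists lie from −0.15 to 0.18, against −0.50 for the 10 members and −0.76 for the immediate-early genes.

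Immediate-early genes, which cells switch on soon after a stimulus, were also mostly lower. Of 26 on the list 23 were lower (median −0.76), and 6 were called lower by limma (*Nr4a1*, *Arc*, *Atf3*, *Nr4a2*, *Fosb* and *Egr3*), where 45.8% of all genes were lower and 0.171% were called lower. Without Prdm16SMKO replicate 1 the median was −0.498. Their summed level was 1414 to 1787 TPM in control and 813 to 1139 TPM in Prdm16SMKO libraries, so the groups did not overlap. None of the 26 was at 0. VSMC markers were lower in 5 of 5 genes, with summed levels that overlapped (14505 to 24674 TPM in control, 11119 to 17094 TPM in Prdm16SMKO libraries). Macrophage markers were higher in 5 of 5, at 29.3 to 45.1 and 47.5 to 83.2 TPM, and endothelial (131 to 188 and 175 to 356 TPM), fibroblast (650 to 850 and 650 to 1238 TPM) and Schwann cell markers (17.5 to 86.4 and 24.4 to 192 TPM) were higher in 5 of 5 genes each with overlapping sums. Adipocyte markers stood out in Prdm16SMKO replicate 3, at 2346 TPM against 461 to 951 TPM in the other 5 libraries, and skeletal muscle markers in Prdm16SMKO replicate 1, at 64.5 TPM against 2.50 to 9.16 TPM. None of the marker genes passed the adjusted threshold in limma, where 0.355% of all genes did, and the smallest adjusted p was 0.245, for *S100b*. Some differences were close to 0, as in *Pi16* of fibroblasts (log2 fold change 0.025) and *Kdr* of endothelium (0.073). Of the marker genes 1, *Myh4* of skeletal muscle, was at 0 in some libraries. The part of these genes and cell types in the chaperone differences was not tested. In bulk tissue, fewer cells of a type and less RNA per cell cannot be told apart.

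The genes with the profile most like the *Hspa1a* and *Hspa1b* sum were sought among 9659 genes averaging 5 TPM or more, by the root mean square difference of log2(TPM + 0.5) over the 6 libraries after each gene's own mean was taken out. The closest were *Fosb* (0.195), *Zfp991* (0.261), *Atf3* (0.272), *Gm830* (0.281) and *Fblim1* (0.286), of which *Fosb* and *Atf3* are on the immediate-early list. *Fosb*, a subunit of the AP-1 transcription factor, was at 28.6, 25.3 and 22.8 TPM in control and at 9.86, 12.3 and 7.30 TPM in Prdm16SMKO replicates 1, 2 and 3. As in the sum, control replicate 1 was highest, Prdm16SMKO replicate 3 lowest and Prdm16SMKO replicate 2 the highest of its group. *Fosb* was chosen for its likeness to the sum over these same values, so this shared order adds no support for a link. The measure also favours genes with a similar difference between the groups.

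*Hspa1a*, *Hspa1b*, *Hspa8*, *Hsph1*, *Hsp90aa1*, *Dnajb1*, *Hspd1* and *Hspe1* were lower under all 17 alternatives, 6 of which left out 1 library. Some of the 17 cannot alter a fold change and bear only on the p-values. These are the other expression minimums, the fits without a variance trend or with robust variances, and the replicate block. *Dnaja1* and *Bag3* were higher under array weights, which gave control replicate 1 a weight of 10.1. Control replicates 2 and 3 had weights of 0.506 and 0.414 there, so the control side of that fit rests mostly on 1 library. Whether a gene was called depended on the setting. *Dnajb1* was called under 7 of the 17 alternatives, *Hspa1a* under 5 and *Hsph1* under 2. *Hspa1b* was called under 1, array weights, and the sum under 2, array weights and a minimum mean of 2 TPM. The share of all genes called lower was then 0.209% with a pseudocount of 0.1, 0.379% with a minimum mean of 2 TPM, 0.59% with size factors, 0.383% with rescaled TPM, 0.393% with robust variances, 1.38% with array weights, 0.186% without Prdm16SMKO replicate 1 and 0.12% without Prdm16SMKO replicate 3. With quantile normalization, where 0.526% were, *Hspa1l* was called and no member was. Among the calls, *Hspa1a* was called without Prdm16SMKO replicate 3 (log2 fold change −1.20; limma, Benjamini-Hochberg adjusted p = 0.0445, range over the alternatives 0.00735 to 0.252) and *Dnajb1* without Prdm16SMKO replicate 1 (−1.44; 0.0297, range 0.0123 to 0.232).

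**Figure D5:**
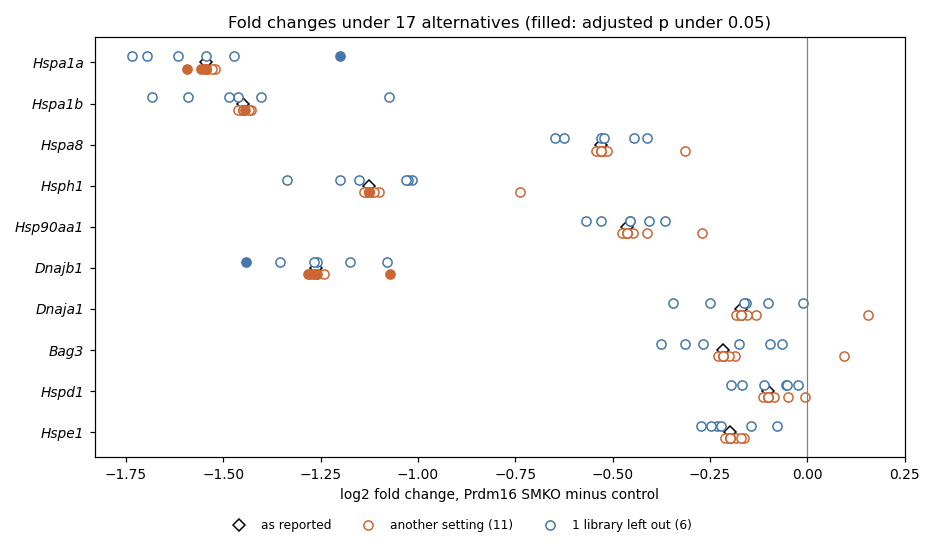
Log2 fold change (Prdm16SMKO minus control) of each member in the limma fit used here (diamond), under 11 other settings (orange) and with each of the 6 libraries left out (blue). Filled symbols have an adjusted p under 0.05. *Hspa1a* runs from −1.74 to −1.20 and *Dnajb1* from −1.44 to −1.07, and *Dnaja1* and *Bag3* cross 0 under array weights.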

How the data were processed

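Abdominal aorta RNA was isolated with the RNeasy micro kit, selected for poly(A), made into libraries with the NEBNext Ultra kit and read as pairs of 151 bp. The authors deposited TPM for 55426 genes, 1 column per library, rounded to 2 decimals. The submitters' processing notes name bcl2fastq, cutadapt 2.3, FastQC 0.11.8, STAR 2.7.8a, RSEM 1.3.3, MultiQC 1.7 and GRCm38, and the annotation release is not given in the sources used here. TPM keeps no depth. Columns were joined to samples by the names in the labels. No pair of libraries was identical.

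Groups were compared with limma 3.58.1 in R 4.3.3 on log2(TPM + 0.5), with a variance trend. P-values were two-sided and were adjusted (Benjamini-Hochberg) over all 15775 genes averaging 0.5 TPM or more. The sum of *Hspa1a* and *Hspa1b* replaced both in a second fit. The fit was tested on simulated data. Gene positions are from GENCODE M21 on GRCm38 and promoters from RefSeq on GRCm38.p6. Python 3.11.15 was used for sequences.

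The 10 members, the lists and the tests were chosen with earlier results of these data known. Named are the members, their sum, *Hsf1*, *Prdm16*, called genes and the largest difference (averaging 5 TPM or more) of each list, and the 5 genes of most similar profile. Some cell type markers and genes that overlap a member or share its sequence are named too. *Hspa12a*, *Hspa12b* and *Hspa9* fall outside these rules and were picked after their values were seen. There were 17 alternatives.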

Additional observations from a re-analysis of the deposited data

How the results depend on the processing

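The number of genes called was 56 in the limma fit used here, which is not the study's own count. It was 10 with no expression minimum, 153 with median-of-ratios size factors (60 higher and 93 lower, against 29 and 27), 129 with quantile normalization (46 and 83), 123 when TPM was rescaled without mitochondrial genes and 45S ribosomal RNA (55 and 68), 33 without a variance trend, 112 with robust variances, 494 with array weights, and 5 to 61 with 1 library left out. Array weights gave control replicate 1 a weight of 10.1 and the other 5 libraries 0.414 to 0.954. Of the 10 members, 1 was called with a pseudocount of 0.1 or the rescaled TPM, 2 with size factors, 3 with a minimum mean of 2 TPM, robust variances or array weights, and 0 to 1 with 1 library left out. The *Hspa1a* and *Hspa1b* sum was called with a minimum mean of 2 TPM (−1.49; limma, adjusted p = 0.0461) and with array weights (−1.51; adjusted p = 0.0112). Of the 71 network genes 1, *Hspa1l*, was called with quantile normalization or array weights. Array weights turned *Dnaja1* to 0.16 and *Bag3* to 0.10, and *Hsf1* ran from −0.243 to 0.013 with 1 library left out, above 0 without control replicate 1. The network list had 29 genes lower without control replicate 2. The cause of these changes was not tested.

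With the replicate number as a block, 4 genes were called and none of the members was (the sum had an adjusted p of 0.193). Same-numbered libraries did not deviate together from their group means (correlations of −0.131, −0.110 and 0.019 over the genes tested), and no library correlated best with its own number. With so few libraries this cannot exclude that same-numbered libraries were handled together. The labels give only a shared number, so no pairing was used.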

Other observations

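Of the 8 other mitochondrial chaperones and proteases, 6 were highest in Prdm16SMKO replicate 3 and 7 were lowest in control replicate 3. *Hspa9*, which encodes the HSP70 of mitochondria, was at 94.9 TPM in Prdm16SMKO replicate 3 and at 60.9 to 73.5 TPM in the other 5 libraries. Prdm16SMKO replicate 3 was also the library with the most adipocyte marker RNA and the lowest of 7 of the 10 members. The median log2 fold change of the 8 genes was 0.18, and was 0.08 without that library and 0.06 without control replicate 3. This pattern was noticed in the data, and its source was not tested.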
